A study of Mus musculus with 6 samples.

Results

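The genes described here encode the proteins of the cytosolic ribosome. They were chosen by name from the GENCODE annotation of the mouse genome build GRCm39, as protein-coding genes whose symbol is Rpl or Rps with a number and at most one letter or one letter with a number, together with Rplp0, Rplp1, Rplp2 and Rpsa. Genes for mitochondrial ribosomal proteins, S6 kinases, pseudogenes and like genes, whose names end in l or l with a number, were left out. The rule used names and no measured value, but it was chosen with earlier results of these data known. The rule gave 77 of 21757 protein-coding genes, 31 for the small 40S subunit and 46 for the large 60S subunit. The assay was ATAC-seq, which marks open chromatin by where the enzyme Tn5 can cut and tag DNA, on unsorted leukocytes of mouse blood whose red cells had been lysed. The labels give 3 control libraries and 3 libraries of high-altitude de-acclimatization (HADA). The study's methods name young adult male C57BL/6j mice, kept in a hypobaric hypoxia chamber and then moved to normoxia to make the HADA model. No allele or transgene was named for either group, and whether a library came from 1 mouse or from pooled blood was not given in the sources used here. The p-values below therefore measure the spread between these libraries.

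Ribosomal proteins assemble with ribosomal RNA into the machine that translates every mRNA, and their genes are transcribed at high rates in nearly all growing cells. Many of their mRNAs begin with a cytosine followed by a run of pyrimidines, the 5′ terminal oligopyrimidine (TOP) motif, through which mTOR signalling and the protein LARP1 control their translation. Leukocytes raise ribosome production when they are activated and divide, and loss of a single copy of some of these genes, among them RPS19, impairs red cell formation in Diamond-Blackfan anaemia.

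The runs of C and T at starts of these genes are shown because they are the letters the family is known for. The annotation held an RNA start with a C within 5 bases and at least 4 more pyrimidines for 50 of the 77 genes, against 37.2% of the other protein-coding genes, but genes with more annotated starts have more chances to hold such a run. Per annotated start of a protein-coding transcript, 89 of 279 member starts (31.9%) held the run against 17.5% of starts of other genes, and runs of 8 or more were found at 11.8% against 2.90%. The lines below give 10 bases before and 20 from an annotated start, on the gene strand of GRCm39, with the run in capitals. Rpl34 has the longest of these runs, with 20 letters, the last of them beyond the bases shown (chr3:130523985-130524014, minus strand), and Rps2 has 15 (chr17:24939072-24939101, plus strand). Rpl29 (chr9:106306720-106306749, plus strand), Rpl10 (chrX:73314453-73314482, plus strand), Rpl7a (chr2:26800804-26800833, plus strand) and Rps20 (chr4:3835585-3835614, minus strand) are genes whose heights are described below. The end of the Rpl29 run overlaps an ETS core, CCGGAAG, read on the other strand.
Rpl34: gaactcacccgCCCCTTCCTTTTCCTCTTC
Rps2: cggcgcctccCTCTTCTTCTTCTTCgggag
Rpl29: tgcgggcctttCTCTTTCTCTTCCggtctc
Rpl10: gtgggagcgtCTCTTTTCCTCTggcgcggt
Rpl7a: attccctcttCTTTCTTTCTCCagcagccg
Rps20: gccgtccggcCCCTCCTTTCTgagccccgg

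The 150 bases just upstream of the outermost annotated start are given for Rps4x (chrX:101233015-101233164, minus strand), which had the largest height difference of the family, and Rps19 (chr7:24583646-24583795, plus strand), which had the tallest start region. Capitals mark the GC box, GGGCGG on either strand, which occurs 1 time in the Rps4x stretch and 2 times in that of Rps19.
Rps4x: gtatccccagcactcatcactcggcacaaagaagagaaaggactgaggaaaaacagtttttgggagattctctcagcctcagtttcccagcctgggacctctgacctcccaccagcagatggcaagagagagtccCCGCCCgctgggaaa
Rps19: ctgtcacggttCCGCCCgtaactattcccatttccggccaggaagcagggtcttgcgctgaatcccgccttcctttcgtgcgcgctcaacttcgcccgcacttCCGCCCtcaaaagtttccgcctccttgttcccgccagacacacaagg

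Peaks were called by the authors in each library by itself, and peaks of the 6 libraries that shared at least 1 bp were merged into 62876 regions, of which 23970 held a peak in every library and 10849 of these lay within 1 kb of a start of a protein-coding gene. The libraries held 34045 to 41475 peaks in control and 44044 to 45799 in HADA, and the median summit pileup of the shared regions was 49 to 58 and 77 to 92 stacked reads. Marker genes of blood cell types moved with the groups, and their part in the results below was not tested. The start regions of 10 B cell genes summed to 0.776 to 6.33 times the median shared region in control and 14.2 to 15.9 in HADA, with the lowest value in control replicate 3. Those of the neutrophil list summed to 5.16 to 13.1 in control and 0.778 to 2.26 in HADA, with Ly6g, Camp and Ngp among its 10 genes at no start peak in any library. The monocyte list summed to 6.11 to 6.84 and 4.04 to 4.66, with Ccr2 at no peak. T cell genes summed to 8.33 to 10.1 and 8.40 to 9.42, NK cell genes to 1.04 to 1.64 and 1.42 to 2.15, and erythroid and platelet genes to 0.347 to 0.764 and 0.951 to 1.20, and Cd4, Cd8a, Ncr1, Klrb1c, Hba-a1, Alas2, Klf1 and Pf4 had no start peak. Among the shared markers, Cd79b and Pax5 (B cells) were 2.82-fold and 4.05-fold higher in HADA, and Cd3e (T cells) 1.47-fold. Trat1, a T cell adaptor, was lower, at 0.409 of control, as were S100a8 (0.201) and Cxcr2 (0.277) of neutrophils and Cx3cr1 (0.462) and Fcgr1 (0.458) of monocytes, although S100a8 and Cxcr2 turned slightly positive, uncalled, with ranks of the authors' fold. In such a mixture, fewer cells of a type and less open chromatin per cell cannot be told apart.

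All 77 genes had a start peak in every one of the 6 libraries, compared with 11018 of the 21738 distinct symbols of protein-coding genes (50.7%). Each gene was followed at its tallest start region, whose length ranged from 684 to 2147 bp with a median of 1008 bp and covered a median of 15.9% of the gene. The weakest of these peaks still had a −log10 q-value of 22.8. Sequence at the tallest summit was unique in the genome for 74 of the 77, and Rpl12, Rpl15 and Rpl31 were the exceptions, so their heights may include reads from copies elsewhere. Ribosomal protein genes have many such copies, processed pseudogenes that lack promoters of their own. Of 314 annotated pseudogenes named after these genes, 10 had a peak within 1 kb of their 5′ end in any library (3.18%) and 1, Rpl21-ps1, in all 6. The Rpl21-ps1 peak reached pileups of 185, 193 and 372 in control and 121, 56 and 59 in HADA, so all control libraries lay above all HADA libraries. The Rps27a-ps1 peak was found in control replicate 1 (13) and in the HADA libraries (45, 66 and 48). Both were named after their values were seen, and a start of another annotated gene lay within 2 kb of each.

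Height was expressed as the summit pileup over the median pileup of the shared regions of the same library, called relative height, where 1 is the median region. The median member stood at 2.79, 2.45 and 2.98 in control and 2.82, 2.69 and 2.64 in HADA, while the median start region of protein-coding genes stood at 1.56 to 1.93. Between 60 and 68 of the 77 members lay above the protein-coding median in each library, and 6 to 10 (7.79% to 13.0%) were in the top 10% of those regions. Most members thus lay above the median start region, while their share of the tallest regions was near that of all protein-coding starts. Their heights were also closer together: the SD of log2 height among members was 0.56 to 0.86 against 1.16 to 1.46 among protein-coding start regions, and in both sets the largest SD was that of control replicate 3.

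**Figure D1:**
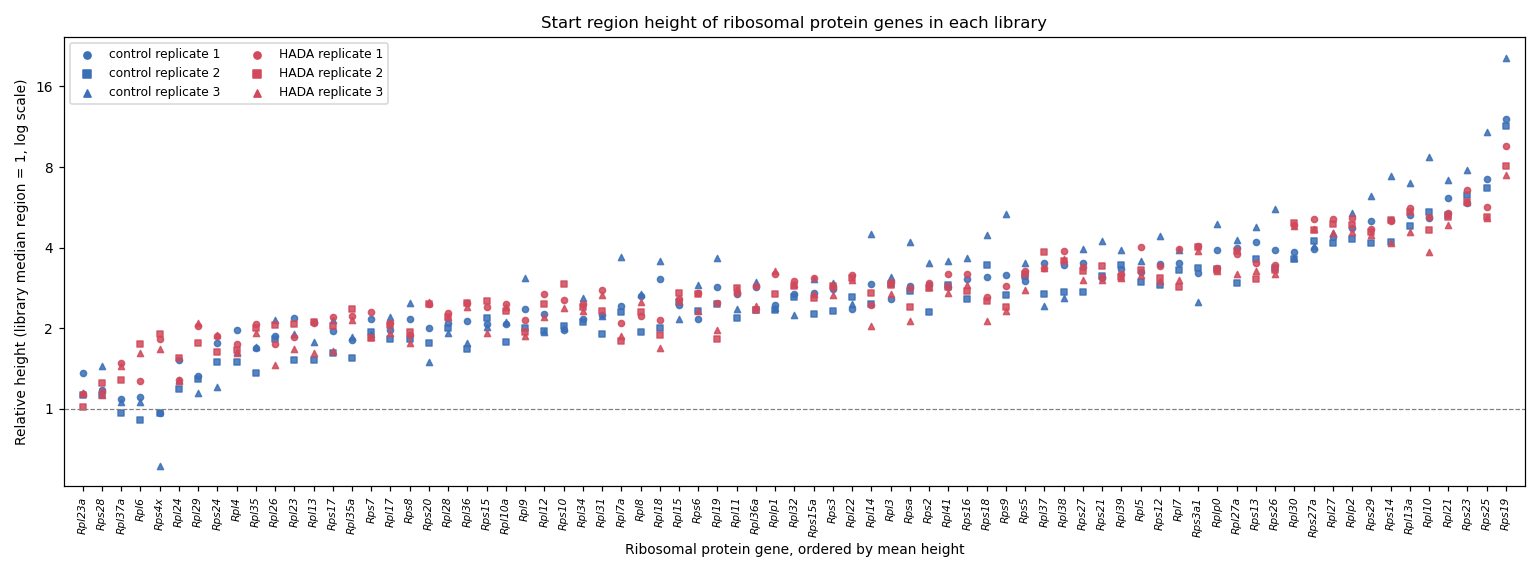
Relative height of the start region (summit pileup over the library's median shared region, log scale) of 75 of the 77 ribosomal protein genes in each of the 6 libraries, genes ordered by mean; control blue, HADA red, marker shape by replicate number, dashed line at 1. Most genes lie between 1 and 8 in every library, and Rps19 is the tallest in all of them, reaching 20.5 in control replicate 3.

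The tallest start region was that of Rps19, a 40S protein needed to mature the small subunit. Its relative height was 12.1, 11.4 and 20.5 in control and 9.58, 8.05 and 7.48 in HADA, at percentiles 98.6 to 99.9 of protein-coding start regions. Rps25, a 40S protein that some viral internal ribosome entry sites depend on, followed with 7.24, 6.67 and 10.9 in control and 5.67, 5.19 and 5.15 in HADA. The Rps25 start region also holds a start of Trappc4. Rps23, a 40S protein of the decoding centre, had 5.90, 6.29 and 7.78 against 6.58, 5.91 and 5.90. These 3 small-subunit genes had the highest means over the 6 libraries, and control replicate 3 was their highest library. Within single libraries the order below Rps19 varied: Rps23 stood above Rps25 in all 3 HADA libraries, Rpl10 (8.76) above Rps23 in control replicate 3, and Rpl13a (5.44) and Rpl21 (5.22) above Rps25 in HADA replicate 2. Ordered by pileup over the library background, Rpl21 and Rpl13a, both 60S proteins, came next, with mean relative heights over the 6 libraries of 5.67 and 5.46, and Rpl10 had 5.51. Rpl13a, which also has a role in translation control by interferon-γ, ranged from 4.59 to 6.98, and Rpl21 from 4.85 to 7.14.

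At the other end, by mean pileup over the library background, lay Rpl23a, a 60S protein at the exit of the nascent chain. Its relative height was 1.36, 1.13 and 1.14 in control and 1.13, 1.01 and 1.15 in HADA. Rps28 had 1.17, 1.13 and 1.45 against 1.15, 1.25 and 1.12, and Rpl24 had 1.52, 1.18 and 1.29 against 1.28, 1.55 and 1.27. The groups overlapped for all 3 of these genes. Rpl37a and Rpl6 completed the lowest 5, by pileup over background, and both had higher values in HADA than in control in every library. By mean relative height, Rpl24 (1.35) stood above Rpl37a (1.22), Rpl6 (1.28) and Rps4x (1.32). Between the mean relative heights of Rps19 and Rpl23a lay a factor of 9.99, and the ratio of tallest to lowest member was 12.5, 12.6 and 33.5 in control and 8.47, 7.95 and 6.66 in HADA. The lowest member of a library was Rps4x in control replicates 1 and 3 (0.97 and 0.61), Rpl6 in control replicate 2 (0.91), Rpl23a in HADA replicates 1 and 2 and Rps28 in HADA replicate 3. The tallest was Rps19 in every library, with 12.1, 11.4 and 20.5 in control and 9.58, 8.05 and 7.48 in HADA. The ratios thus turn on both ends.

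The summit lay on average downstream of the canonical start, the start of the gene's main annotated transcript, for 52 genes and upstream for 25, with a median position 86.8 bp downstream. Measured to the nearest of all annotated starts, of which a member had a median of 10, the median distance was 44.8 bp. Rps16, Rpl26 and Rps28 had their summits closest to a start, at 5.17, 6.17 and 6.67 bp, and Rpl10 and Rps25 were among the 3 farthest, at 272 and 182 bp. Rpl10 joins the 60S subunit late and is needed for its release to translation, and its summit lay 297 to 328 bp upstream of the canonical start in every library. The position was steady between libraries: it varied by a median of 68 bp over the 6 libraries, by 6 bp for Rps10 at the least, and by up to 323 bp for Rpl7a at the most, and 61 genes stayed within 100 bp.

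**Figure D2:**
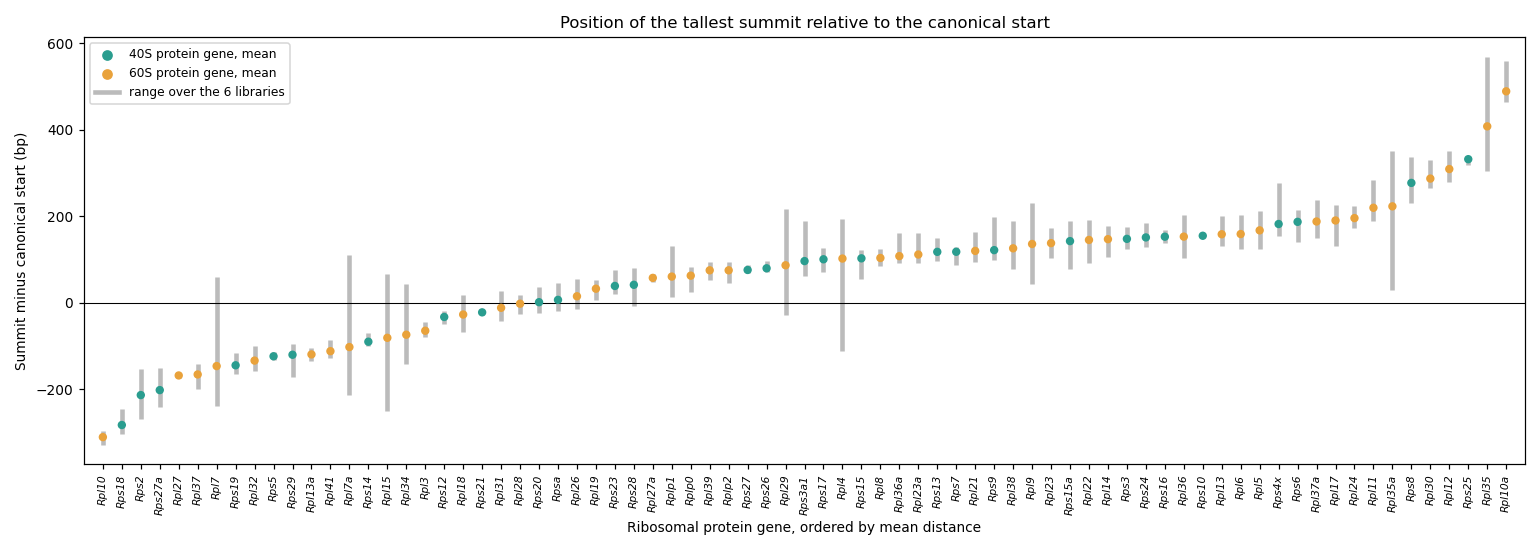
Distance from the canonical start to the tallest summit (bp, positive downstream) for 75 of the 77 genes, ordered by mean; points are means over the 6 libraries, grey bars their range, colour the subunit. The mean lies above 0 for most genes, the grey bars are short for most genes, and Rpl7a, with a range of 323 bp, is among the few with long ones.

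Whether HADA was accompanied by a change at these starts was tested with limma on log2 height, centred on the median shared region of each library, over all 23970 shared regions with Benjamini-Hochberg adjustment. Of the 77 members, 6 passed an adjusted p of 0.05 (7.79%), 4 higher in HADA and 2 lower. The background was 42.0% of all shared regions, 17.9% higher and 24.1% lower, and 26.6% of start regions of protein-coding genes, 19.6% higher and 6.94% lower. The share of members called thus lay below both. Without adjustment, 14 members had a p under 0.05 (18.2%), against 37.4% of protein-coding start regions and 52.5% of all shared regions. The median difference between HADA and control was -0.00 on the log2 scale for the members, 0.12 for protein-coding start regions and -0.04 for all shared regions, with 38 members positive and 39 negative.

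The differences of the members were also smaller in size. The median absolute log2 difference was 0.20 for the members, 0.34 for protein-coding start regions and 0.53 for all shared regions, and the median SE was 0.18 for members and 0.19 for protein-coding start regions. Of the members, 67 (87.0%) differed by less than 0.5, against 66.1% of protein-coding start regions and 47.9% of all shared regions. In 21 members every HADA library lay above every control library (27.3%, against 37.0% of protein-coding start regions and 29.4% of all shared regions), and in 7 members every HADA library lay below (9.09%, against 15.0% and 31.2%). The share above was thus near that of all shared regions. The other 49 members had overlapping groups. These counts turn on the scaling: with heights over the library background, which raised the median of all shared regions in HADA by 0.34 on the log2 scale, 33 members lay above (42.9%, against 55.6% of protein-coding start regions and 42.8% of all shared regions), 0 lay below (3.46% and 17.4%) and 16 were called, all 16 higher (31.9% of all shared regions were called higher on that scale). Centred on protein-coding start regions instead, 9 members were called, 1 higher and 8 lower, against 38.6% of all shared regions, and the median member stood at -0.16. Directions given here are relative to the median shared region.

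**Figure D3:**
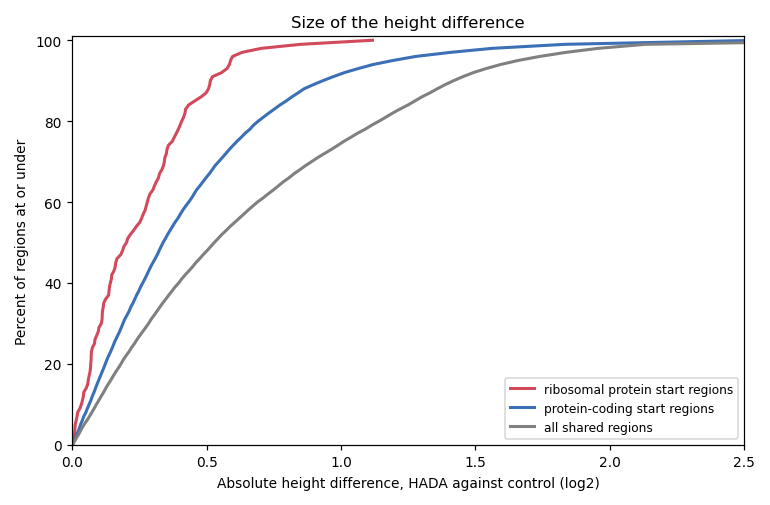
Cumulative percent of regions (vertical axis) at or under an absolute log2 height difference between HADA and control (horizontal axis), for the 77 ribosomal protein start regions, 10849 protein-coding start regions and 23970 shared regions. The curve of the ribosomal protein genes lies to the left of the others, with medians of 0.20, 0.34 and 0.53.

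**Figure D4:**
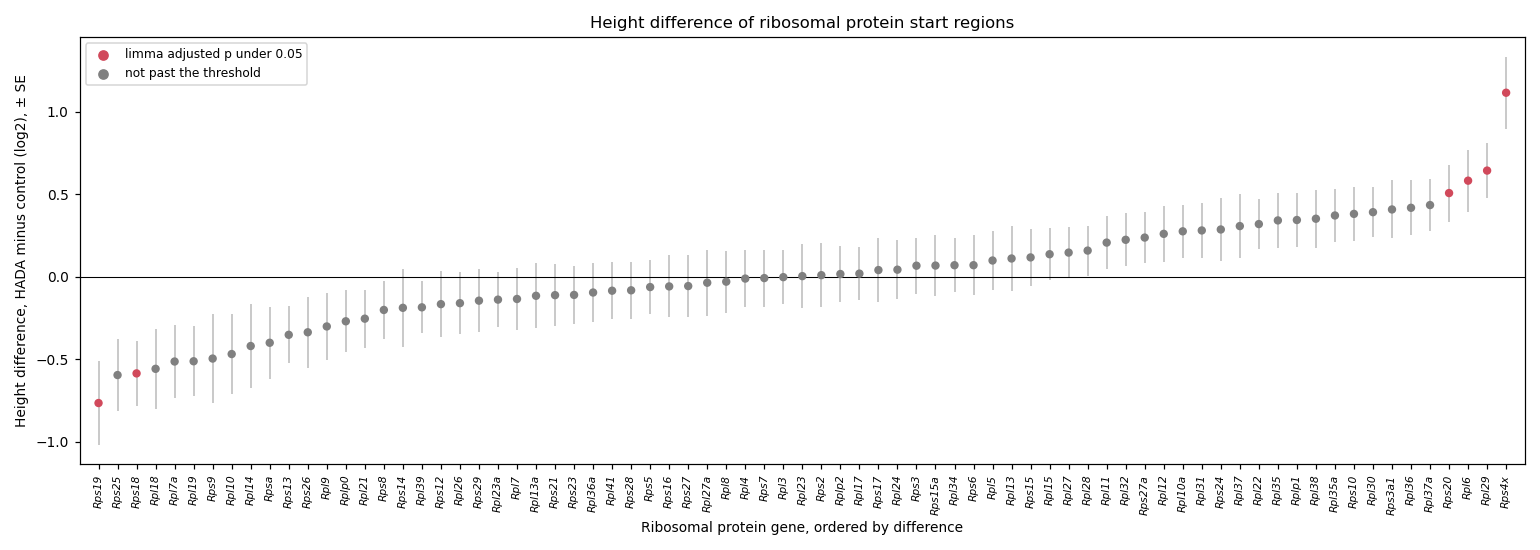
Log2 height difference, HADA minus control, relative to the median shared region, for 75 of the 77 genes in order, with SE bars from limma (3 libraries a group); the 6 genes past an adjusted p of 0.05 are red. Rps4x stands at 1.12 and Rps19 at -0.77, and most genes lie within 0.5 of 0. On heights over the library background, all 16 members called were higher, and Rps19 and Rps18 kept their direction without passing.

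Rps4x, the X-linked gene for a 40S protein, had the largest difference. Reads stacked at its summit numbered 56, 53 and 30 in control and 168, 147 and 135 in HADA, which are relative heights of 0.97, 0.96 and 0.61 and of 1.83, 1.91 and 1.67. Every HADA library lay above every control library, and control replicate 3 was the lowest. The difference was 1.12 ± 0.22 (SE) on the log2 scale, a fold of 2.17 (limma adjusted p = 0.011). It passed in 18 of 19 alternatives and missed without HADA replicate 2 (adjusted p = 0.0504, with a range over the alternatives of 1e-05 to 0.0504). The authors' fold over local background was also higher in HADA, with 11.9 ± 1.38 (SD) in control and 17.4 ± 1.80 in HADA (n = 3 each), and its rank also passed (adjusted p of limma 0.0341). The region, chrX:101232401-101233198, covers the 5′ end of the gene and held no other annotated start.

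Rpl29, a 60S protein also known to bind heparin, had relative heights of 1.33, 1.29 and 1.14 in control and 2.03, 1.75 and 2.10 in HADA. The groups did not overlap, and the difference was 0.64 ± 0.17 (SE; limma adjusted p = 0.0202). Rpl6, a 60S protein with a role at sites of DNA damage, rose from 1.10, 0.91 and 1.06 to 1.27, 1.74 and 1.62, a difference of 0.58 ± 0.19 (adjusted p = 0.0394 by limma). Its start region also holds a start of Gm26205. Rps20, a 40S protein whose mutation predisposes to colorectal cancer, had 2.00, 1.76 and 1.49 in control and 2.46, 2.45 and 2.51 in HADA, a difference of 0.51 ± 0.17 (limma adjusted p = 0.0468). The HADA values of Rps20 were the closest together of the called genes, and its start region also holds the starts of Gm24016 and Gm32823, so its height belongs to all of them. Centred on protein-coding start regions, the differences of Rpl29, Rpl6 and Rps20 were 0.48, 0.42 and 0.35 and did not pass (limma adjusted p of 0.0524, 0.0840 and 0.131), nor did their fold ranks (limma adjusted p of 0.159, 0.0590 and 0.341). Rpl37a, the next in order, did not pass: 1.09, 0.96 and 1.06 in control stood against 1.48, 1.29 and 1.44 in HADA (adjusted p = 0.0594 by limma), although its fold rank did (adjusted p = 0.0472).

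Rps19 was the tallest member and the one with the largest difference downward. Its difference was -0.77 ± 0.25 (SE), a fold of 0.588 (limma adjusted p = 0.0426), with every HADA library below every control library. Its start region also holds a start of Gm38966. Without control replicate 3, its tallest library, the difference was -0.55 with an adjusted p of 0.0428 by limma. With quantile normalization, which gives all libraries the same distribution, it was -0.38 and did not pass (limma adjusted p = 0.0620). Ranks of the authors' fold gave -0.23 in normal scores, also uncalled (limma adjusted p = 0.398). Before scaling, the pileup stood at 702, 629 and 1005 in control and at 881, 620 and 606 in HADA, and over the library background the groups overlapped (difference -0.39, limma adjusted p = 0.264). In the neighbourhood of Rps19, a region 5236 bp away, to which no protein-coding start was assigned, stood higher in HADA (0.65 ± 0.16, limma adjusted p = 0.0169), and the start region of Arhgef1, 18881 bp away, differed by 0.24 without passing (limma adjusted p = 0.236). The start region of the B cell gene Cd79a, 11322 bp away, had pileups of 45 and 36 in control, no peak in control replicate 3, and 160, 133 and 155 in HADA. Lacking a peak in 1 library, the Cd79a region was not tested.

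Rps18, a 40S protein at the head of the subunit, had relative heights of 3.10, 3.45 and 4.45 in control and 2.62, 2.53 and 2.12 in HADA. The difference was -0.59 ± 0.20 (limma adjusted p = 0.0446), again with no overlap. Over the library background the groups overlapped (difference -0.21, limma adjusted p = 0.565). This region is shared with the start of Vps52, which is transcribed away from Rps18, so the height cannot be split between the pair. A second region within 1 kb of annotated starts of Rps18 and of B3galt4, 3409 bp away, had a difference of 0.40 ± 0.19 (limma adjusted p = 0.115). Rps25, Rpl19 and Rpl7a had the next smallest p-values of the lower members, with differences of -0.60, -0.51 and -0.51 and limma adjusted p-values of 0.0573, 0.0839 and 0.0925. Rpl19 and Rpl7a are 60S proteins. Control replicate 3 was the highest library of Rps25, Rpl19 and Rpl7a, at relative heights of 10.9, 3.65 and 3.69. The groups were apart for Rps25 and Rpl7a and overlapped for Rpl19. The start region of Rps25 also holds a start of Trappc4, and that of Rpl7a holds starts of Med22 and Gm23969.

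**Figure D5:**
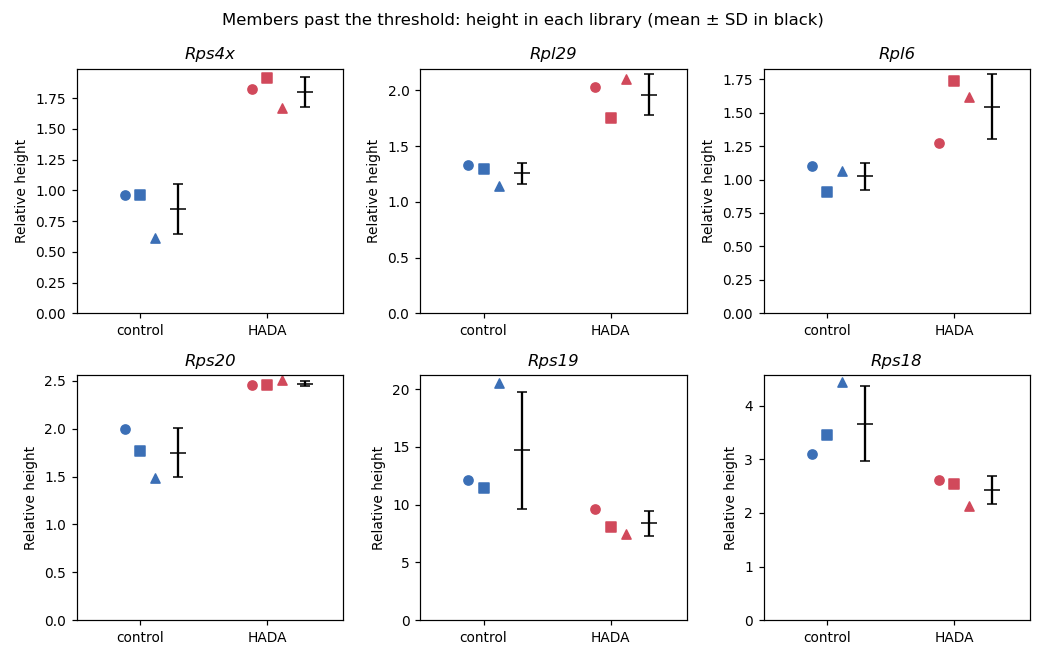
Relative height (linear axis from 0) of the 6 genes past the threshold in the 3 control (blue) and 3 HADA (red) libraries, marker shape by replicate number, with mean ± SD in black. The groups do not overlap in any panel; Rps4x, Rpl29, Rpl6 and Rps20 are higher in HADA and Rps19 and Rps18 lower, the last 2 without passing on heights over the library background, and Rpl29, Rpl6 and Rps20 without passing when centred on protein-coding start regions.

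Beyond these 6 genes, 17 members had every HADA library above every control library without passing, at differences of 0.14 to 0.44 and limma adjusted p-values of 0.0594 to 0.508. The largest were Rpl37a, Rpl36, Rps3a1, Rpl30 and Rps10, and the smallest were Rpl15 and Rpl28. A further 5, among them Rps25, Rpl7a, Rps13 and Rpl39, had every HADA library below, at -0.60 to -0.19 and limma adjusted p-values of 0.0573 to 0.366. With the called genes added, the 21 members above were 16 of 46 60S genes and 5 of 31 40S genes. Members above made up 27.3%, against 37.0% of protein-coding start regions and 29.4% of all shared regions. The 7 below were 2 60S genes and 5 40S genes, 9.09% of members against 15.0% and 31.2%. A difference between the subunits was not tested. The 49 members with overlapping groups ran from -0.56 (Rpl18) to 0.31 (Rpl37). On heights over the library background, the 16 members called were Rps4x, Rpl29, Rpl6, Rps20, Rpl37a, Rpl36, Rps3a1, Rpl30, Rps10, Rpl35a, Rpl38, Rplp1, Rpl35, Rpl22, Rpl37 and Rps24, at differences of 0.67 and more where the median shared region stood at 0.34.

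Leaving out 1 library weighed on these calls. Rpl29, Rpl6, Rps20, Rps19 and Rps18 each lost their call when any of the 3 HADA libraries was left out, with adjusted p-values of 0.0529 to 0.174 by limma. Their differences kept their direction, at 0.62 to 0.74 for Rpl29, 0.50 to 0.72 for Rpl6, 0.51 to 0.53 for Rps20, -0.87 to -0.66 for Rps19 and -0.64 to -0.47 for Rps18. Rpl6, Rps20 and Rps18 also lost it without control replicate 2 (limma adjusted p of 0.065 to 0.0819) or control replicate 3 (limma adjusted p of 0.0556 to 0.102). Members called numbered 7 without control replicate 1, 5 without control replicate 2, 3 without control replicate 3, 1 without HADA replicate 1 or HADA replicate 3, and 0 without HADA replicate 2, where 4 had an unadjusted p under 0.05. The share of all shared regions called moved too, at 43.9%, 36.9% and 39.1% without control replicates 1, 2 and 3, and at 22.1%, 11.2% and 22.6% without HADA replicates 1, 2 and 3. Control replicate 3 gave the highest of the 6 relative heights in 41 of the 77 members (53.2%) and in 39.7% of protein-coding start regions.

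By subunit, 4 of 31 40S genes were called (12.9%), 2 higher and 2 lower, and 2 of 46 60S genes (4.35%), both higher, against 26.6% of protein-coding start regions. The median difference was -0.06 for the 40S genes and 0.03 for the 60S genes on the scale centred on the median shared region. The acidic stalk, where elongation factors dock, is made of Rplp0, Rplp1 and Rplp2. Rplp0 had 3.91, 3.33 and 4.90 in control and 3.37, 3.29 and 3.28 in HADA, a difference of -0.27 ± 0.19. Rplp1 had 2.43, 2.35 and 2.39 against 3.20, 2.68 and 3.26, a difference of 0.34 ± 0.16 with no overlap of the groups. Rplp2 had 4.74, 4.31 and 5.41 against 5.14, 4.84 and 4.59. None of the 3 passed (limma adjusted p of 0.272, 0.12 and 0.943).

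Rpl5 and Rpl11 bind the 5S ribosomal RNA, and outside the ribosome their complex holds back the p53 inhibitor MDM2. Rpl5 had 3.24, 2.96 and 3.55 in control and 4.03, 3.29 and 3.16 in HADA, and Rpl11 had 2.69, 2.18 and 2.37 against 2.71, 2.83 and 2.79. The differences were 0.10 ± 0.18 and 0.21 ± 0.16, neither past the threshold (limma adjusted p of 0.674 and 0.326). The X chromosome carries 4 members. Besides Rps4x, Rpl10 had 5.16, 5.45 and 8.76 in control and 5.18, 4.66 and 3.84 in HADA (difference -0.47 ± 0.25), Rpl39 3.33, 3.45 and 3.92 against 3.20, 3.12 and 3.07 (-0.19 ± 0.16), and Rpl36a 2.84, 2.35 and 2.98 against 2.88, 2.34 and 2.42 (-0.10 ± 0.18). These 3 did not pass (limma adjusted p of 0.153, 0.366 and 0.689), and their difference from Rps4x was not tested. Over 292 protein-coding start regions of that chromosome, 28.4% were called and the median difference was 0.19.

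Of 14 members mutated in Diamond-Blackfan anaemia, 1 was lower (Rps19, 7.14% of the list against 26.6% of protein-coding start regions called) and 0 were higher, with a median difference of 0.07. Rps10, a 40S protein of this list, had the next smallest p, with a difference of 0.38 ± 0.16 (limma adjusted p = 0.0913). Fau, which encodes a ribosomal protein fused to a ubiquitin-like protein under another name, differed by -0.16 ± 0.22 and did not pass (limma adjusted p = 0.579). The Fau region is also the start region of Mrpl49, with the same values. Among 7 like genes, Rpl3l, Rpl10l and Rpl39l, known for expression in muscle or testis, had no start peak in any library. The other 4 were open in all 6, with differences of -0.34 to -0.12 and 0 calls, Rpl22l1 (-0.34 ± 0.20) and Rps27l (-0.26 ± 0.20) having the smallest p-values.

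Some start regions were shared with neighbours. In 16 members the start region also held the start of another protein-coding gene. In 8 of them the canonical start of that gene lay within 1 kb upstream of the member's, on the opposite strand. These were Nkiras1 at Rpl15, Sphk2 at Rpl18, Zwilch at Rpl4, Rdh10 at Rpl7, Lias at Rpl9, Vps52 at Rps18, Clhc1 at Rps27a and Ndufa7 at Rps28. Any opposite pair whose canonical starts lay in the other order was counted with the remaining 69 members. Of these 8 members 1 was called, lower, and of the remaining 69 members 4 were called higher and 1 lower, which are 12.5% and 7.25% against 26.6% of protein-coding start regions. Introns of 30 members carried 59 annotated small nucleolar RNAs, which guide modification of ribosomal RNA. A second start region was found for 7 members, and those of Rpl11, Rpl18, Rpl3, Rps18 and Rps24 held a peak in all 6 libraries. Their differences ran from -0.08 for Rpl18 to 0.54 ± 0.20 for Rpl11 (limma adjusted p = 0.0648), and none passed.

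The width of the peak gave a further reading of the same regions. The median member peak spanned 894, 831 and 846 bp in control and 962, 940 and 961 bp in HADA. After centring on the shared regions of each library, whose median width was 825 to 907 bp in control and 946 to 970 bp in HADA, log2 differences ran from -0.29 to 0.40 and 0 members passed (limma, lowest adjusted p = 0.133), while 3 had an unadjusted p under 0.05 (3.90%, against 28.5% of all shared regions). The share of all shared regions called for width was 1.55%. Rps26 had the smallest p, with 843 bp in control and 1135 bp in HADA. Ranks of the authors' fold, which is taken over the local background, called 2 members, Rps4x and Rpl37a, both higher, against 11.3% of all shared regions.

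Other genes of ribosome production and translation gave a wider context. Of 78 mitochondrial ribosomal protein genes, 76 had a start region in all libraries, of which 7 were called higher and 1 lower (10.5%, against 26.6% of protein-coding start regions), and the median difference of 0.12 was that of protein-coding start regions. Mrpl46 and Mrps11 shared 1 region, so the 76 genes are not all separate regions. Mrpl23, of the large mitochondrial subunit, had 1.22, 1.07 and 0.84 in control and 1.85, 1.95 and 1.82 in HADA, and Mrps26, of the small one, 2.02, 1.56 and 1.02 against 3.10, 3.35 and 3.09 (differences of 0.86 ± 0.19 and 1.11 ± 0.25, limma adjusted p of 0.0136 and 0.0149). The groups were apart for both. Of 24 shared genes of ribosome production, 3 were called higher (12.5%, against 19.6% of protein-coding start regions) and 0 lower, with a median difference of 0.27. Nop56, a core protein of box C/D small nucleolar particles, had 2.81, 2.53 and 1.94 against 4.39, 4.40 and 4.09, and Polr1b, the second subunit of RNA polymerase I, 1.69, 1.67 and 1.24 against 2.40, 2.58 and 2.15. Their differences were 0.84 ± 0.19 and 0.64 ± 0.19 (limma adjusted p of 0.0141 and 0.030).

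Of 19 translation factors and partners, many with TOP mRNAs themselves, 2 were called higher, Npm1 (0.68 ± 0.19), the nucleolar chaperone nucleophosmin, and Nap1l1 (0.59 ± 0.18), a histone chaperone, and 0 lower (limma adjusted p of 0.0258 and 0.0320). These were 10.5% of the list, below the 19.6% of protein-coding start regions called higher, and the median of the list was -0.04. The direction of Nap1l1 turned on the rank of the fold (-0.31). Of 14 shared genes of growth control, 1 was called, higher, which is 7.14% of the list and below the same 19.6%. This gene, Myc, the transcription factor that drives ribosome production, had 1.29, 1.16 and 0.78 in control and 1.70, 1.96 and 1.99 in HADA (difference 0.83 ± 0.22, limma adjusted p = 0.0227). Rptor, the mTORC1 scaffold, came second with 0.44 ± 0.16 and did not pass (limma adjusted p = 0.0626).

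Promoter letters were counted in windows of 250 bases before to 50 after a start, in the RefSeq table of GRCm38.p6, which matched 57 of the 77 genes, and around the canonical start of all 77 in GRCm39. The ETS core, CCGGAAG on either strand, was in 37.3% of the member windows of RefSeq against 8.86% of all 32851 windows, and in 24 of 77 canonical windows (31.2%) against 10.2% of other protein-coding genes and 17.2% of those with a start region in all 6 libraries. The GC box, GGGCGG, was in 39 canonical windows (50.6%) against 42.5% and 60.7%, and the E-box CACGTG, the letters bound by Myc among others, in 11 (14.3%) against 7.80% and 10.6%. TATAAA was in 10 (13.0%) against 13.2% and 7.55%, AAGATGG (YY1) in 6 (7.79%) against 5.73% and 6.61%, and GCGCATG (NRF1 core) in 6 (7.79%) against 4.99% and 7.19%. In member windows of RefSeq the GC box was in 61.2% against 35.7% of all windows, and the E-box in 11.9% against 7.15%. There TATAAA was in 8.96% against 13.6%, AAGATGG in 16.4% against 6.34%, and GCGCATG in 13.4% against 3.91%. These are matches of letters, not measured binding. The pyrimidine run stood within 5 bases of the start in 43.3% of member windows of RefSeq and 18.3% of all its windows, but in 19 of the 77 canonical windows of GRCm39 (24.7%) against 19.0% of other genes. The start with the run lay downstream of the canonical one by 144 bp in Rpl29, 65 bp in Rps20 and 38 bp in Rpl7a. Of the called genes, Rpl6 and Rps18 had the ETS core in the canonical window, and Rps4x, Rps19 and Rps20 the GC box.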

How the data were processed

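Chromatin accessibility was measured in 3 control and 3 HADA libraries of mouse blood leukocytes, with groups and replicate numbers taken from the labels. Per the submitters' processing notes and the study's methods, the authors used FastQC, Trimmomatic, Bowtie2, Picard and MACS2 on GRCm39. For the counts over peaks the methods name featureCounts or bedtools as examples. Versions, MACS2 options and any Tn5 shift were not given in the sources used here. The deposited lists give for each peak the fold over local background (a ratio), the −log10 p-value and −log10 q-value and a score derived from the q-value by the authors' caller. The whole-number summit pileup and its background were solved from the deposited fold and −log10 p-value (100% of peaks in every library returned their deposited values). Depth is known only through the library background pileup, 1.69 to 2.05 in control and 1.99 to 2.34 in HADA, and read totals were not used here.

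The members and all gene lists were chosen with earlier results of these data known. Genes came from GENCODE M39 on GRCm39. A start region was the region with the highest mean pileup among those with a summit within 1 kb of an annotated start. Log2 pileups of regions with a peak in all 6 libraries were centred on their median and compared with limma 3.58.1 in R 4.3.3, without covariates, at a Benjamini-Hochberg adjusted p of 0.05. No value was imputed. The fit was tested on simulated data. With 3 libraries against 3, an exact permutation test of a single value could not go below 0.1. Genes were named by rule: the 5 members with the smallest p in each direction, the 5 tallest and 5 lowest, members without a peak in some library (0 found), the stalk, 5S RNP and X-linked lists, the 2 smallest p-values of each other list, and the 3 summits nearest to and farthest from a start. Genes named for shared starts, widths, second regions, neighbours, single motifs or runs, or groups that did not overlap fell outside it and were chosen after their values were seen. Motif shares around GENCODE starts were added after seeing the data, since the RefSeq table matched part of the genes. Groups of 3 were too small for a test of outlying libraries. Some genes are not reported by name here, and 75 of the 77 members are drawn in the plots of single genes.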

Additional observations from a re-analysis of the deposited data

How the results depend on the processing

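Of the height results, 6 members were called with all libraries, against 42.0% of all regions tested. In most other settings 6 to 9 were called, against 31.4% to 42.9%. Heights over the library background called 16, against 50.4%, and ranks of the fold 2, against 11.3%. Peaks of a −log10 q-value of at least 10 called 11 (8 higher and 3 lower), against 40.1%. With 1 library left out, 0 to 7 were called, against 11.2% to 43.9%. The median member difference, -0.00, was 0.38 over the library background, -0.16 when centred on protein-coding start regions and -0.08 to 0.07 with 1 library left out. For width, 0 members were called, against 1.55% of all shared regions, and 2 when widths were not centred, both higher, against 3.56%. Every member kept a start peak in all libraries except under starts within 250 bp, which gave 75, with Rpl10 among those lost. The replicate number as a block left 1 call for height, Rps4x, against 36.1% of all shared regions, and 0 for width, against 0.00%. Same-numbered libraries correlated at -0.08, 0.08 and -0.38 in their deviations from the group means. Of 6 libraries 0 correlated best with their own number, so the numbers were not treated as pairs. Across 51 named genes and their alternatives, 836 of 954 values kept their direction or stayed uncalled, 91 lost and 24 gained a call, and 36 uncalled values changed sign. With ranks of the fold, Nap1l1 turned to -0.31, S100a8 to 0.040 and Cxcr2 to 0.035 in normal scores, all uncalled. The causes were not tested. Depth was known only as background pileup, and with 3 libraries a group calls near the threshold turned on single libraries.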
